A study of Mus musculus with 46 samples.

Results

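At day 12 after infection of mouse embryonic fibroblasts (MEFs), on the way to induced pluripotent stem cells (iPSCs), the histone variant H3.3 was profiled by ChIP-Seq in cells sorted as positive (D12S+) or negative (D12S-) for SSEA-1, a surface carbohydrate that marks pluripotent mouse cells. These 2 libraries, out of 46 samples in the series, were chosen by their sort labels. They hold 45922 H3.3 peaks in D12S+ and 87536 in D12S-. All cells of both fractions descend from MEFs infected with pMXs retroviruses for Oct4, Sox2, Klf4 and c-Myc (OSKM). They were kept without feeder cells in a medium with serum replacement, LIF, ascorbic acid, bFGF, CHIR99021 and N-2, and the MEFs carried an IRES-EGFP cassette behind the Oct4 (*Pou5f1*) coding sequence. The peaks were also set against 10 further H3.3 libraries of the same conversion. These were uninfected MEFs (D0), unsorted cells of day 3 (D3), cells of days 6 and 9 sorted for the fibroblast protein Thy-1 (D6T-, D6T+, D9T-, D9T+), SSEA-1 sorted cells of day 16 (D16S+, D16S-), finished iPSCs, and ESD3, an embryonic stem cell line grown in the same medium without OSKM. The remaining comparison libraries were MEF, the uninduced fibroblasts of a separate transdifferentiation experiment, and the H3K4me3 and H3K36me3 libraries of D0, D12S+ and iPSCs. Each group is 1 library, so no difference could be set against a spread between replicates and none was tested. The intervals given are 95% Wilson intervals, or differences built from them, and cover counting error only.

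H3.3 replaces the canonical histone H3 outside of DNA replication. The chaperone Hira places it over active genes, promoters and enhancers, while Atrx and Daxx place it at telomeres and pericentric heterochromatin. During conversion by OSKM most infected fibroblasts never reach pluripotency, and sorting for SSEA-1 separates cells that have moved towards that state from cells that have not. A sorted fraction is still a mixture, and a weaker peak in it can come from fewer cells of a kind or from less H3.3 per cell, which cannot be told apart here.

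The libraries differed in how much of their signal lay in peaks. D12S+ had 22.5 M tags with 6.93% of them in peaks, and D12S- had 27.3 M tags with 22.0% in peaks. The peaks covered 45.5 Mb in D12S+ and 141 Mb in D12S-, with a median length of 634 bp and 804 bp. In the other 10 reprogramming libraries these shares of tags ran from 4.88% to 19.3%, so D12S- had the highest share of all 12. Differences in pull-down and differences between the cells cannot be told apart in these peak numbers, and each comparison below was repeated with the same number of top peaks in both fractions. The number was 45922, the length of the shorter list, so D12S+ kept its whole list. The score that ranked the peaks, and that is used throughout, is the normalized tag count of a peak per 10 M tags of its library. It is not divided by peak length, and even at equal numbers the D12S- peaks were longer, with a median of 1692 bp and 117 Mb covered.

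The sequences that follow come from the highest scoring intergenic peaks found in only 1 fraction that held a given motif within 250 bp of the peak centre. They are shown because intergenic peaks separated the fractions most, and because the other libraries split along with them. All are 100 bases of the plus strand of mm9, 5′ to 3′, with the motif match in capitals. The D12S+ peaks hold the octamer ATGCNAAT of Oct4 or the Esrrb motif TCAAGGTCA, and the D12S- peaks hold the AP-1 motif TGANTCA.
D12S+ octamer, chr4:146841533-146841632: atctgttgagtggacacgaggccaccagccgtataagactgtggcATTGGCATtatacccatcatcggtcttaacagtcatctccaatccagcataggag
D12S+ octamer, chr4:155296146-155296245: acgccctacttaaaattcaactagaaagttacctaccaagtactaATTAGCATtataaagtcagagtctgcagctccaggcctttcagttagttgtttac
D12S+ Esrrb, chr1:7599608-7599707: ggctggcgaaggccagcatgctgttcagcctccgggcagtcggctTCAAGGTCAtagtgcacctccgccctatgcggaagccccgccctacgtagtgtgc
D12S+ Esrrb, chr11:85054042-85054141: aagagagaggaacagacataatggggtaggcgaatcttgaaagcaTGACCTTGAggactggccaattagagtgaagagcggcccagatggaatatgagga
D12S- AP-1, chr7:120291459-120291558: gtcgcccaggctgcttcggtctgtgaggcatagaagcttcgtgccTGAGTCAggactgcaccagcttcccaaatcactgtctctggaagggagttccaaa
D12S- AP-1, chr3:115347148-115347247: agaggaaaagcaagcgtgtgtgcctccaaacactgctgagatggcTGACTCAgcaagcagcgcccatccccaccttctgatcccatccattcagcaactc
D12S- AP-1, chr7:105539131-105539230: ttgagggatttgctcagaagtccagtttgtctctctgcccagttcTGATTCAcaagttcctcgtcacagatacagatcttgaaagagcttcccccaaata

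The first octamer peak (chr4:146839975-146842829, score 49.3 in D12S+) lies 25.1 kb from the start of the nearest gene, *Gm13152*. It had a score of 329 in iPSCs, 74.7 in ESD3 and 180 in D16S+, and no peak overlapped it in the remaining reprogramming libraries. The Esrrb peak on chromosome 1 (score 42.7) followed the same course, with 69.2 in iPSCs, 33.1 in ESD3 and 77.9 in D16S+ and no peak elsewhere. The other octamer peak (47.3) had 77.6 in iPSCs and 35.7 in D16S+ but none in ESD3, and 14.2 in D9T-. The Esrrb peak on chromosome 11 (25.1) had 37.1 in iPSCs, 60.1 in ESD3 and 14.4 in D16S+, and also 6.4 in D6T-, 15.3 in D9T- and 9.8 in D9T+. These 2 were thus less sharply divided. The AP-1 peak on chromosome 7 near *Arntl*, a clock transcription factor gene (59.3 kb away, score 122 in D12S-), was the reverse. It scored 121 in D0, 59.5 in D3, 124 in D9T+ and 103 in D16S-, had a score of 12.5 in ESD3, and had no peak in D16S+ or iPSCs. The AP-1 peak on chromosome 3, 68.2 kb from *S1pr1*, scored 121 in D12S-, 79.5 in D0, 30.8 in D3 and 52.9 in D16S-. It also had 5.47 in iPSCs and 8.56 in ESD3, and no peak in D16S+. The AP-1 peak 29.5 kb from *Tsku*, which encodes a secreted leucine-rich protein, scored 116 in D12S-, between 51.8 and 83.6 in the D0, D3, day 6, day 9 and D16S- libraries, and had no peak in D16S+, iPSCs or ESD3.

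Of the D12S+ peaks, 13550 (29.5%, 29.1% to 29.9%) had no D12S- peak overlapping by 1 bp or more, and of the D12S- peaks 62811 (71.8%, 71.5% to 72.1%) had no D12S+ peak. With equal numbers of top peaks there were 17148 (37.3%) D12S+ only and 24996 (54.4%) D12S- only peaks. Of the 17148, 3598 (21.0%) met a lower ranked peak further down the D12S- list, so the other 13550 had no D12S- peak at any rank. The strongest D12S+ peaks were nearly all found in both fractions. Among D12S+ peaks with a score of 50 or more, 16 of 1607 (0.996%) lacked a D12S- peak, against 5131 of 10750 (47.7%) below a score of 7. The reverse shares were 1257 of 9704 (13.0%) and 19846 of 21320 (93.1%) of the D12S- peaks. Peaks found in D12S+ only were short and weak, with a median of 500 bp and a score of 7.33, against 724 bp and 10.4 for the D12S+ peaks that overlapped D12S-. D12S- held 4626 peaks of 5 kb or longer and D12S+ held 480, and 2 of the latter had no D12S- peak.

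The one-sided peaks of the 2 fractions were spread differently over genomic classes, while the whole lists at equal numbers were close, with 31.8% of D12S+ and 28.2% of D12S- peaks intergenic. Intergenic sites made up 40.0% (39.2% to 40.7%) of the D12S+ only peaks at equal numbers and 28.0% (27.4% to 28.6%) of the D12S- only peaks, a difference of 12.0 points (11.1 to 12.9). Introns showed the opposite, with 44.6% of the D12S+ only and 55.0% of the D12S- only peaks, a difference of -10.4 points (-11.4 to -9.46). Promoters were taken as the 1 kb before a transcription start and the 100 bp after it, and they held 6.04% and 7.14%. Exons held 4.68% of either set. Peaks that overlapped between fractions resembled each other, with 26.9% intergenic and 12.8% promoter in D12S+ and 28.5% intergenic and 13.2% promoter in D12S-. With all peaks the intergenic difference was 13.6 points (12.7 to 14.5), with ranks by score per kb 7.43 and with peaks at least 4 times over input 4.74. The X chromosome held 290 (0.632%) of the D12S+ peaks and 970 (1.11%) of the D12S- peaks, within the 0.487% to 1.26% of the other reprogramming libraries.

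**Figure D1:**
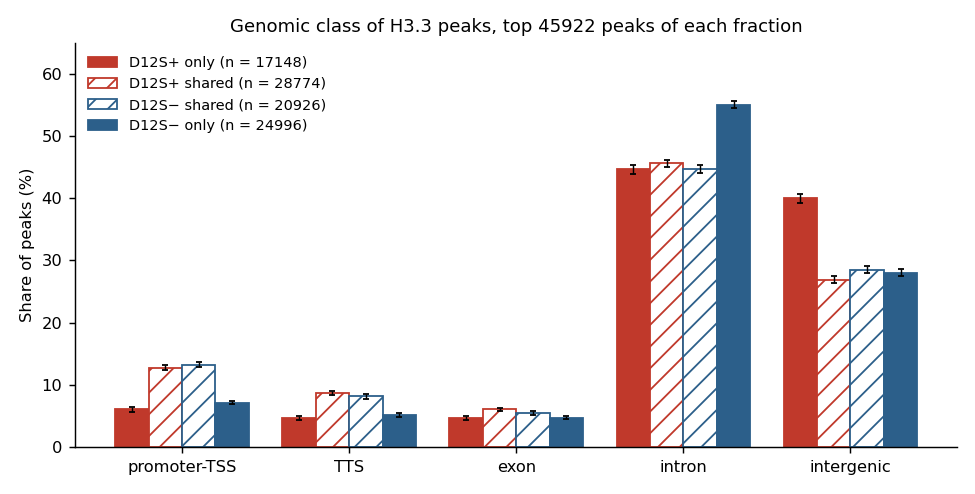
Share of H3.3 peaks (%, y axis) in each genomic class (x axis) with the top 45922 peaks of each fraction, for peaks found in D12S+ only (solid red), D12S+ peaks that overlap D12S- (hatched red), D12S- peaks that overlap D12S+ (hatched blue) and peaks found in D12S- only (solid blue). Bars are shares of 1 library with 95% Wilson intervals for counting error, and the D12S+ only peaks stand at 40.0% intergenic against 26.9% to 28.5% in the other sets.

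The libraries that had no part in choosing the one-sided peaks also divided them. At equal numbers, 50.1% (49.3% to 50.8%) of the D12S+ only peaks had a peak in iPSCs, 29.9% in ESD3 and 23.2% in D16S+. The D12S- only peaks reached 30.9% (30.3% to 31.4%) in iPSCs, 16.8% in ESD3 and 11.2% in D16S+. In D0 the order was turned round, with 22.1% (21.5% to 22.7%) of the D12S+ only peaks and 53.3% (52.7% to 53.9%) of the D12S- only peaks, and in MEF the values were 9.00% and 28.6%. The differences were 19.2 points (18.3 to 20.2) in iPSCs, 13.1 (12.3 to 13.9) in ESD3, 12.0 (11.2 to 12.7) in D16S+ and -31.2 (-32.0 to -30.3) in D0. Peaks that overlapped between fractions recurred more often than either one-sided set in iPSCs, ESD3, D16S+ and D0. Of such D12S+ peaks 64.3% had a peak in iPSCs, 43.7% in ESD3 and 37.9% in D16S+. Of such D12S- peaks 74.03%, 55.7% and 49.9% had one. The differences thus compare the one-sided sets with each other only. Over all peaks the D0 difference was -18.6, and it was -15.7 with equal numbers by score per kb and -4.35 with peaks at least 4 times over input.

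D12S- only peaks were most often present in D6T- (69.1%) and D9T- (60.2%), both Thy-1 negative, and 51.4% were present in D16S-. Fewer were found in the Thy-1 positive cells of the same days, with 43.9% in D6T+ and 52.8% in D9T+. D6T- and D9T- had more tags (29.7 M and 32.4 M against 21.5 M and 22.5 M) and more peaks than D6T+ and D9T+, and the part of depth in this order was not tested. In day 16 cells the 2 sets crossed. Of the D12S+ only peaks 23.2% recurred in D16S+ and 17.8% in D16S-, although D16S+ had 34062 peaks and D16S- 65454. Longer peaks meet other peaks more easily, and the D12S- only peaks were the longer set. When only a peak midpoint had to lie inside a peak of the other library, the differences over all peaks were 27.7 points in iPSCs and -13.2 in D0, against 26.9 and -18.6 by any overlap. At equal numbers the shares by midpoint were 42.4% of the D12S+ only and 17.3% of the D12S- only peaks in iPSCs, and 16.5% and 35.9% in D0, so the D0 gap was much narrower than by any overlap.

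**Figure D2:**
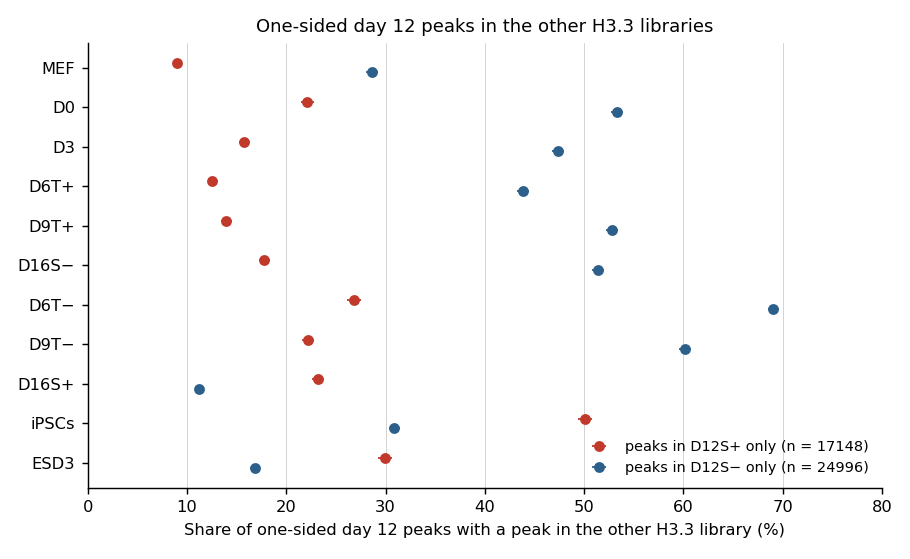
Share (%, x axis) of the peaks found in D12S+ only (red) and D12S- only (blue) at equal numbers of top peaks that overlap a peak in each of 11 other H3.3 libraries (y axis). Points are shares in 1 library with 95% Wilson intervals, mostly narrower than the point, and the red points lie to the right of the blue ones for the day 16 positive cells, iPSCs and ESD3, and to the left in the other 8 libraries.

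Taking the libraries together, D16S+, iPSCs and ESD3 were set as the late side, and D0, D3, D6T+, D9T+ and D16S- as the fibroblast side. This grouping was made after the values above were seen. D6T- and D9T-, in which the D12S- only peaks recurred most (69.1% and 60.2%), were placed on neither side. A peak on 1 side alone could therefore also have a peak in D6T- or D9T-. Of the D12S+ only peaks at equal numbers, 5822 (34.0%, 33.2% to 34.7%) had a peak on the late side and none on the fibroblast side, and 3289 (19.2%) the reverse. Of the D12S- only peaks, 1020 (4.08%, 3.84% to 4.33%) were on the late side alone and 12514 (50.1%, 49.4% to 50.7%) on the fibroblast side alone. The pattern was steepest between genes, since 50.9% of the intergenic and 22.7% of the genic D12S+ only peaks were on the late side alone, against 4.74% and 3.82% of the D12S- only peaks. With all peaks, 19.4% of the D12S+ only and 17.5% of the D12S- only set had none of the 10 other reprogramming libraries behind them. At equal numbers, where only the D12S- list lost its lowest scoring peaks, such private peaks made up 16.9% and 3.70%. Among the 651 D12S+ only peaks with a score of at least 20, 2 were such private peaks and 411 (63.1%) were present in all 3 late libraries, near the 4576 of 7630 (60%) among D12S+ peaks of that score that overlapped D12S-. On the late side alone were 336 (51.6%) of the former and 89 (1.17%) of the latter, and on both sides 299 (45.9%) and 7222 (94.7%).

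H3K4me3, the mark of active and poised promoters, was analysed here for D12S+ and not for D12S-. In the D12S+ H3K4me3 list 13.1% of the D12S+ only and 14.8% of the D12S- only peaks at equal numbers had a peak, a difference of -1.66 points (-2.32 to -0.984). With all peaks the difference was 1.47 points (0.899 to 2.06), and with equal numbers by score per kb 1.04 (0.418 to 1.66). By midpoint at equal numbers by score the shares were 9.58% and 7.96%. The direction of the difference thus depended on how peaks were chosen and matched. D0 H3K4me3 overlapped 12.8% of the D12S+ only and 26.2% of the D12S- only peaks, while iPSCs H3K4me3 overlapped 15.8% and 15.4%. By midpoint these shares were 9.57% and 16.5% for D0, and 11.1% and 8.74% for iPSCs. H3K36me3, which accompanies transcription through gene bodies, overlapped 2.64% and 3.90% in D12S+ and 21.8% and 28.7% in D0. By midpoint the order turned in D12S+, with 1.52% and 1.18%, and in D0 the shares were 18.6% and 20.4%. The D12S+ H3K36me3 library had 1.07% of its tags in peaks, so few overlaps could be seen.

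A protein-coding gene was called bound when its transcription start was the nearest to a peak that lay in a promoter, exon, intron or gene end, so the peak itself could lie in a neighbouring gene. At equal numbers 10514 of 22238 genes were bound in D12S+ and 10977 in D12S-, with 8888 bound in both. Genes bound in D12S+ only numbered 1626 (7.31% of all genes) and those bound in D12S- only 2089 (9.39%). Using all peaks these were 758 genes (3.41%) and 3584 genes (16.1%). Genes bound in D12S+ only were shorter, with a median of 15.4 kb, than those bound in D12S- only (22.0 kb) or in both (25.7 kb), and unbound genes had a median of 7.31 kb.

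The one-sided genes also differed in the other libraries. Of the 1626 genes bound in D12S+ only, 82.8% were bound in iPSCs, 65.1% in ESD3, 51.1% in D16S+ and 61.2% in D0. Of the 2089 genes bound in D12S- only, 65.2% were bound in iPSCs, 48.1% in ESD3, 32.2% in D16S+ and 81.3% in D0. Over all genes the shares were 58.8%, 49.7%, 40.5% and 59.1%. The D12S+ only genes thus lay above all genes in the late libraries and near them in D0. The D12S- only genes lay above all genes in D0 and iPSCs, near them in ESD3 and below them in D16S+. Genes bound in both fractions had higher shares than either set, with 92.3% in iPSCs, 83.4% in ESD3, 75.8% in D16S+ and 92.7% in D0. Of 2026 genes with a promoter peak in D12S+ only, 41.3% (39.1% to 43.4%) had an H3K4me3 promoter peak in D12S+. The share was 36.5% (34.5% to 38.7%) of 2014 genes with a promoter peak in D12S- only and 49.8% of 2123 genes with one in both.

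Named genes are given by the summed score of the peaks that touch the gene or 1 kb on either side. Such a peak was found in D12S+ only for 428 genes (1.92%) and in D12S- only for 3366 genes (15.1%). The sum was higher in D12S+ for 963 genes (4.33% of all) and higher in D12S- for 13583 (61.1%). Against that background, 15 of 44 listed pluripotency genes (34.1%, 21.9% to 48.9%) had the higher sum in D12S+, and 23 had it in D12S-. None of the 40 fibroblast matrix genes, 0 of 10 AP-1 genes and 0 of 36 housekeeping genes were higher in D12S+. The lists were written with earlier results of these data known.

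Pluripotency genes were more often bound in D12S+. At equal numbers 34 of 44 (77.3%) were bound in D12S+ and 25 (56.8%) in D12S-, a difference of 20.5 points (0.815 to 38.1). Of these, 10 were bound in D12S+ only (22.7%, against 7.31% of all genes). With all peaks the counts were 34 and 30, and the interval of the difference, -9.43 to 26.8 points, included 0.

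*Tdgf1*, which encodes the Nodal co-receptor Cripto (chr9:110842114-110848662, mm9, minus strand), was the gene of the list with the largest one-sided sum. It scored 117 over 3 peaks in D12S+ and had no peak in D12S-. Its sums were 115 in iPSCs, 204 in ESD3 and 129 in D16S+, between 0 and 9.44 in the 7 remaining reprogramming libraries, and its H3K4me3 sum was 138 in D12S+ and 0 in D0. *Esrrb*, an orphan nuclear receptor of the naive state (chr12:87702067-87862578, plus strand), scored 68.5 in D12S+ and 0 in D12S-, and 571 in iPSCs, 557 in ESD3 and 182 in D16S+. In D0 it still had 24.8, and in D6T-, D9T-, D6T+, D9T+ and D16S- it had no peak. *Nr5a2*, a nuclear receptor that activates *Pou5f1*, scored 17.1 in D12S+ and 0 in D12S-, and 179 in iPSCs, 117 in ESD3 and 34.1 in D16S+.

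Of the remaining 7 genes of this list bound in D12S+ only at equal numbers, 5 had D12S- peaks that were lower ranked or assigned elsewhere. *Dnmt3l*, a cofactor of de novo DNA methylation, scored 16.2 in D12S+ and 8.05 in D12S-, and *Utf1*, a chromatin-associated factor of pluripotent cells, 13.8 and 7.5. *Lefty2*, a Nodal antagonist, scored 16.4 and 7.5. For *Lefty1*, another Nodal antagonist, and *Phc1*, a Polycomb subunit, the sums were larger in D12S- (111 against 46.6, and 280 against 219), and some of the peaks touching these genes reached past them. *Dppa5a* and *Dppa2*, both expressed in pluripotent cells, had 13.8 and 7.11 in D12S+ and no peak in D12S-, and 71.0 and 60.8 in D16S+.

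Genes bound in both fractions included *Nanog*, a core factor of pluripotency, with 121 in D12S+ and 46.8 in D12S-. It scored 0 in D0 and D3, 177 in D16S+, 7.32 in D16S-, 218 in iPSCs and 250 in ESD3. *Tdh*, a threonine dehydrogenase of pluripotent cells, scored 145 and 57.6, and *Sall4*, a zinc finger factor, 152 and 148. Over the whole list 35 of 44 genes (79.5%) had a peak in or within 1 kb of the gene in D12S+ and 33 (75%) in D12S-. Over all genes these shares were 50.3% and 63.5%. Of the 6 genes taken as pluripotent markers, *Nanog*, *Esrrb*, *Zfp42*, *Dppa5a*, *Tdgf1* and *Sall4*, 5 had a peak in D12S+ and 2 in D12S-. *Zfp42* had no peak in either and scored 99.4 in iPSCs, 147 in ESD3 and 11.7 in D16S+. *Nanog* and *Sall4* had peaks in both fractions.

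Among the 4 delivered factors the *Pou5f1* locus stood apart. Its summed score was 1995 in D12S+ and 379 in D12S-, but the input there was 27.6 times the median input per kb of D12S+ peaks and 18.0 times that of D12S- peaks. The peak sums at the same gene were 2841 in D16S+ and 5742 in iPSCs, 178 in ESD3, and 0 in D0, D3, D6T+, D6T- and D9T+. The retroviruses carry Oct4 cDNA, whose reads can map to the exons of the gene, and the part of this in the score was not tested. *Sox2* scored 42.4 in D12S+ and 46.3 in D12S-, with an input of 1.68 times and 0.970 times the median. *Klf4* scored 52.2 and 111, and *Myc* 25.8 and 138, with inputs of 2.29 and 2.32 times the median in D12S+. Of the 3 sort markers 2 had a peak in D12S- and 0 in D12S+, against 63.5% and 50.3% of all genes. *Fut4* and *Fut9*, fucosyltransferases that make the SSEA-1 carbohydrate, had no peak in D12S+, and *Fut4* had 9.70 in D12S-. *Thy1* had 54.0 in D12S- and none in D12S+.

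Fibroblast matrix genes were the list with the widest gap. At equal numbers 17 of 40 (42.5%) were bound in D12S+ and 29 (72.5%) in D12S-, a difference of -30 points (-48.0 to -8.33). Of these, 12 (30%, against 9.39% of all genes) were bound in D12S- only and 0 in D12S+ only. The median sum over the list was 0 in D12S+ and 60.1 in D12S-, while over all genes it was 6.00 and 25.4.

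*Thbs1*, which encodes the matrix glycoprotein thrombospondin 1, scored 150 in D12S- and 0 in D12S+. *Fbln2*, a fibulin of elastic fibres, scored 123 and 0, and in D0 744. *Col12a1* and *Col6a3*, both collagen chains, had 81.8 and 76.2 in D12S- and no peak in D12S+, and in D0 they had 808 and 694. *Mmp2*, a gelatinase, scored 62.2 and 0, and *Pdgfra*, a growth factor receptor of mesenchyme, 24.7 and 0. *Loxl2*, a collagen cross-linking enzyme, had 146 in D12S- and 13.6 in D12S+. *Fap*, a serine protease of activated fibroblasts, was called bound in D12S- through a peak outside the gene and its 1 kb flanks. Each of the genes named for this list had a higher sum in D0 than in D12S-. *Cd44*, the hyaluronan receptor, had the highest sum of the list, with 1389 over 85.4 kb of peaks in D12S- and 62.4 over 4.22 kb in D12S+. It had 1471 in D0, 819 in D16S-, no peak in D16S+ and 5.59 in iPSCs.

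Contractile genes and mesenchymal regulators were also bound more often in D12S-, with intervals of the difference that included 0. Of 15 contractile genes 10 were bound in D12S+ and 13 in D12S- at equal numbers, a difference of -20 points (-46.7 to 10.5). Of these, 4 (26.7%, against 9.39% of all genes) were bound in D12S- only and 1 (6.67%, against 7.31%) in D12S+ only. *Acta2*, smooth muscle actin, scored 190 in D12S- and 0 in D12S+, and *Lmod1*, leiomodin 1, 57.1 and 0. *Tagln*, transgelin, had 12.4 and 0. *Cnn2*, a calponin, scored 243 and 119 although only D12S- was called bound. *Myl9*, a myosin light chain, had a single peak of 6.44 in D12S+ and none in D12S-. Of 22 mesenchymal regulators 13 were bound in D12S+ and 16 in D12S-, a difference of -13.6 points (-38.4 to 13.7). Those bound in D12S- only were 3 (13.6%), near the 9.39% of all genes. *Twist2*, a fibroblast transcription factor, scored 55.2 in D12S- and 0 in D12S+, and 859 in D0. *Foxd1* and *Ebf2*, transcription factors of mesenchymal progenitors, scored 67.0 and 29.8 in D12S- and 0 in D12S+. *Prrx1*, a homeobox factor of limb mesenchyme, had 709 over 49.1 kb in D12S- and 25.8 over 2.00 kb in D12S+.

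Markers of fibroblasts were present in D12S- and weaker or absent in D12S+. All 7 (*Col1a1*, *Col1a2*, *Col3a1*, *Thy1*, *Pdgfra*, *Twist2* and *Prrx1*) had a peak in D12S-, with sums from 24.7 to 709. In D12S+ 4 had one, with sums from 6.22 to 25.8. Over all genes 63.5% had a peak in or within 1 kb of the gene in D12S- and 50.3% in D12S+. For *Col1a1*, collagen type I alpha 1, the sum was 582 in D0, 128 in D12S- and 7.33 in D12S+, and for *Col1a2* 707, 57.3 and 6.22.

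Epithelial genes were bound at like shares in both fractions, within a wide interval. Of 33 genes 26 were bound in D12S+ and 25 in D12S- at equal numbers, a difference of 3.03 points (-17.1 to 22.8). One-sided were 5 in D12S+ (15.2%, against 7.31% of all genes) and 4 in D12S- (12.1%, against 9.39%). With all peaks the counts were 26 and 29, so the direction depended on the number of peaks. The summed score was higher in D12S- for 26 of the 33 genes, with a median of 83.6 against 46.6 in D12S+. It was higher in D12S+ for 5 (15.2%, against 4.33% of all genes), namely *Cdh1*, *Epcam*, *Cldn4*, *Esrp1* and *Cldn7*. *Cdh1*, E-cadherin, scored 211 in D12S+ and 205 in D12S-, against 42.7 in D0. *Epcam*, an epithelial adhesion molecule, had 56.5 and 43.5, and *Krt8*, keratin 8, 55.6 and 187. *Cldn4*, a tight junction claudin, had 105 and 15.2, with 230 in iPSCs. *Esrp1*, an epithelial splicing regulator, had 62.0 and 14.1, though its D12S+ peak was assigned to a neighbouring start, and *Dsg2*, a desmoglein, had 27.3 and 49.9. *Elf3*, an epithelial ETS factor, *Cldn7*, *Lsr*, a receptor of tricellular junctions, and *Cgn*, cingulin, were called bound in D12S+ only. Their sums were 85.6, 65.5, 6.44 and 53.8 in D12S+ and 135, 49.4, 13.7 and 89.8 in D12S-. *Cldn3*, *Ovol1*, an epithelial zinc finger factor, and *Krt19* were called bound in D12S- only, with 83.6, 51.9 and 19.0 in D12S- and 20, 0 and 0 in D12S+.

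AP-1 genes, whose products bind the AP-1 motif, had higher sums in D12S- in 10 of 10 cases. Housekeeping genes did so in 36 of 36 cases, so this did not set the AP-1 list apart. Over all genes 61.1% were higher in D12S- and 4.33% in D12S+, and 7690 of 22238 had no peak in either fraction. By the nearest start 7 were bound in D12S+ and 5 in D12S- at equal numbers. *Fosl1* scored 286 in D12S- and 57.3 in D12S+, *Atf3* 75.6 and 7.33, *Batf* 19.6 and 6.89, and *Junb* 619 and 294. All 4 encode basic leucine zipper proteins. Over all genes 47.3% were bound in D12S+ and 49.4% in D12S- at equal numbers. In the remaining lists at equal numbers, 13 of 15 TGF-beta pathway genes were bound in each fraction. Of 15 senescence and p53 genes, 15 were bound in D12S+ and 12 in D12S-. Bound in D12S+ and D12S- were 29 and 33 of 36 housekeeping genes, 5 and 3 of 20 germline genes, and, as markers of cells outside the conversion, 5 and 7 of 18 hematopoietic, 7 and 6 of 12 endothelial, 8 and 7 of 13 neural and 5 and 4 of 14 endoderm and trophoblast genes. With all peaks the order turned for germline (5 and 7), neural (8 and 10) and endoderm and trophoblast genes (5 and 7), and the endothelial counts were 7 and 7. The hematopoietic counts were then 5 and 11, a difference of -33.3 points (-57.4 to -1.1), against -12.7 points over all genes. The summed scores of the hematopoietic genes ran from 0 to 232 in D12S+ and from 0 to 677 in D12S-, both highest at *Cd68*, a lysosomal protein gene of macrophages. Those of the endothelial genes ran from 0 to 167 and from 0 to 430, both highest at *Pecam1*, an adhesion molecule gene, and 6 of 12 had a peak in each fraction. *Ptprc*, *Lyz2*, *Cdh5* and *Kdr*, members of these lists picked after their values were seen, had no peak in either. In or within 1 kb of the gene, 5 of 18 hematopoietic genes had a peak in D12S+ and 11 in D12S-. Over all genes 50.3% and 63.5% had one. The part of such cells in the results was not tested.

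**Figure D3:**
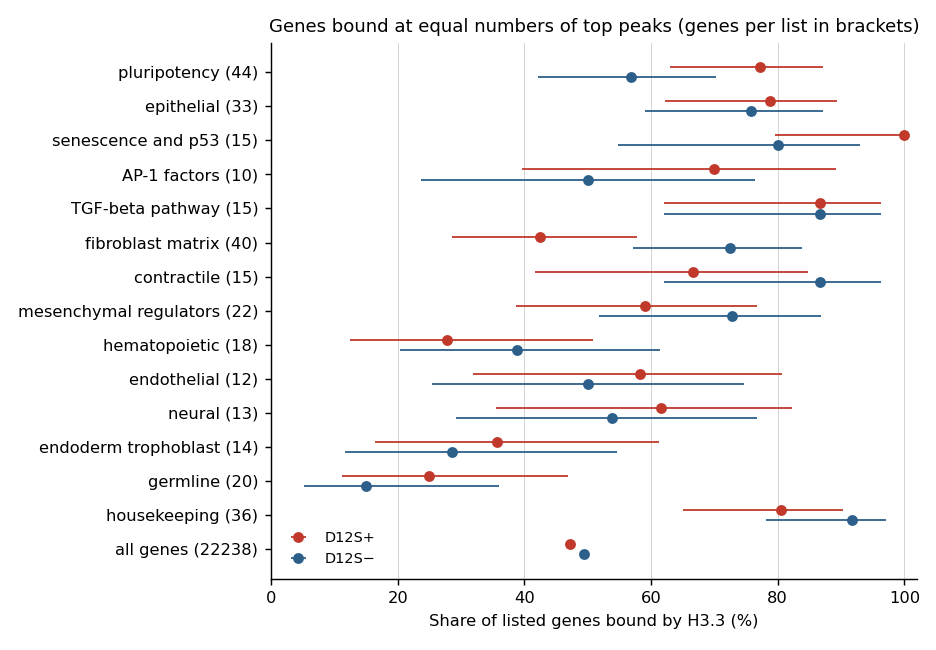
Share of the genes of each list bound by H3.3 (%, x axis) in D12S+ (red) and D12S- (blue) at equal numbers of top peaks, with the number of genes in brackets and all 22238 protein-coding genes at the bottom. Points are shares in 1 library with 95% Wilson intervals, and the red and blue points lie farthest apart for fibroblast matrix genes (42.5% and 72.5%) and pluripotency genes (77.3% and 56.8%).

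Outside the lists, genes were ranked by score among those bound in 1 fraction at equal numbers and free of any peak of the other fraction inside the gene or within 1 kb. They numbered 601 for D12S+ and 2045 for D12S-. The nearest-start rule gave these genes many peaks of their neighbours. Of the 10 highest in D12S+ (*Gm16721*, *Tdgf1*, *Ccr4*, *Gm13212*, *1700106J16Rik*, *Ephx3*, *Gphb5*, *D130058E05Rik*, *Gm10567* and *Clec2i*), 5 held no D12S+ peak in the gene or within 1 kb, and 8 were also assigned D12S- peaks. Of the 10 highest in D12S- (*Dnase1l3*, *Tcf19*, *Slc1a2*, *Gm17379*, *Gm17590*, *Gm17438*, *Gm10197*, *Gm11158*, *Fam105a* and *Gpr151*), 9 were also assigned D12S+ peaks. The ranking was therefore repeated, after these values were seen, with peaks that touch the gene or its 1 kb flanks and with at least 1 peak midpoint there. This left 401 genes for D12S+ and 1753 for D12S-.

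In D12S+ the highest of these genes were *Gm13242* (165 over 8 peaks), *Tdgf1*, *Gm14401* (74.8), *Gm6804* (71.5), *Esrrb*, *Gtsf1l* (63.3), *Chtf18* and *Gng13* (52.8 from the same 2 peaks), *Gm13212* (44.4) and *Gm2864* (42.0). *Chtf18* encodes a subunit of a clamp loader for sister chromatid cohesion and *Gng13* a G protein gamma subunit. *Gm13242* and *Gm13212*, which overlap on chromosome 4, had an input of 3.42 and 3.70 times the median. *Gm13242* scored 1855 in iPSCs, 553 in ESD3 and 359 in D16S+, and between 0 and 6.18 in the 7 remaining reprogramming libraries. Of the 10 genes, *Chtf18* and *Gng13* had no peak in D16S+, and all 10 had sums above 18 in iPSCs and ESD3.

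In D12S- the highest were *Tcf19* (532), *Nmd3* (350), *2610528E23Rik* and *Filip1l* (339 from the same 17 peaks), *Spg7* (336), *Syne1* (320), *Sh3d19* (268), *Lias* (259), *Adssl1* (255) and *Crebzf* (245). *Nmd3* encodes an export adaptor of the large ribosomal subunit, *Spg7* a mitochondrial protease, *Syne1* the nuclear envelope protein nesprin 1, *Lias* lipoic acid synthetase and *Adssl1* the muscle adenylosuccinate synthase. *Tcf19*, next to *Pou5f1*, owed its sum mainly to a peak of 471 at chr17:35649153-35651035, where the input was 27.5 times the median. *Syne1* had 575 in D0, 184 in D16S- and no peak in D16S+ or iPSCs, and *Filip1l* had 1055, 177, 6.67 and 115.

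Of genes bound in both fractions with a summed score of at least 20 in each, 5572 in all, the median ratio of D12S+ to D12S- was 0.353 and 316 genes (5.67%) were higher in D12S+. The smallest ratios fell on *Prrx1*, *Hsd17b12*, a steroid and fatty acid enzyme gene (22.4 in D12S+ and 545 in D12S-), *Oxr1*, an oxidation resistance gene (30.2 and 730), *Cd44* and *Tm4sf1*, a tetraspanin-like surface protein gene (20.4 and 473). *Tm4sf1* had 324 in D0, 182 in D16S- and no peak in D16S+, iPSCs or ESD3. The largest ratios were those of *Rfc4*, *Nat10*, *BC031181*, *Eif3k* and *Smo*. For the first 4 the peaks touching the gene summed higher in D12S- (480, 429, 235 and 282 against 264, 165, 156 and 204), and the D12S- peaks had been assigned largely to other starts. *Smo*, the Hedgehog signal transducer, had 192 in D12S+ from 1 peak with an input of 9.96 times the median, and 40.8 in D12S-.

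**Figure D4:**
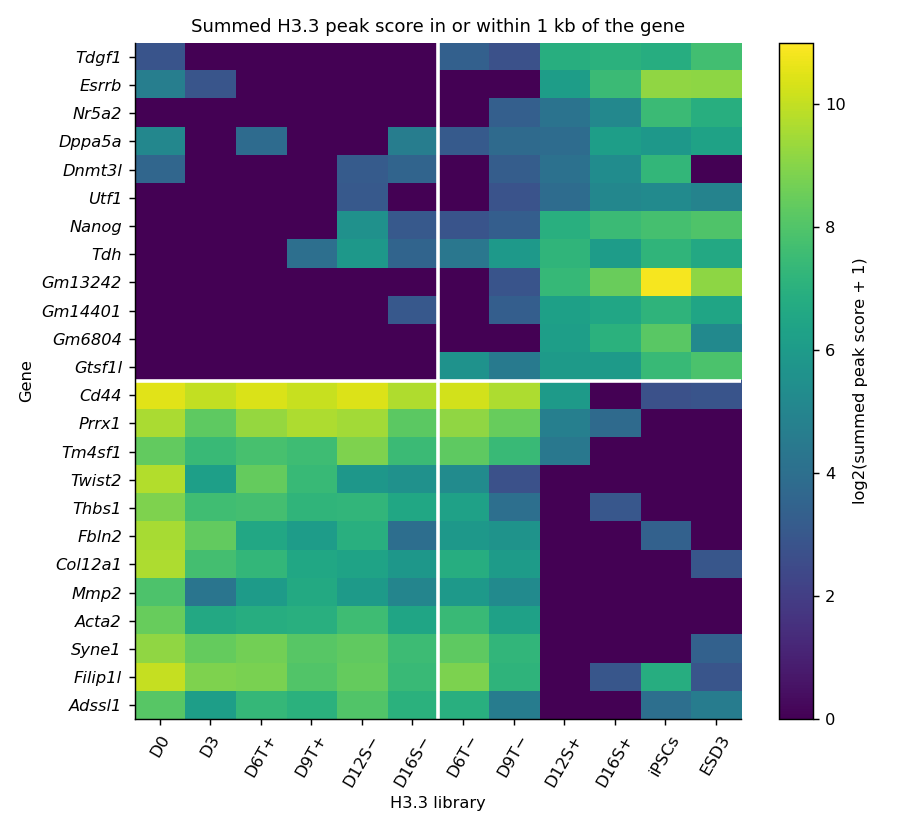
Summed H3.3 peak score in or within 1 kb of 24 genes (y axis) in 12 reprogramming libraries (x axis), coloured as log2(sum + 1), with genes higher in D12S+ above the white line, genes higher in D12S- below it, and D0, D3 and the unsuccessful fractions left of the vertical line. The genes were chosen after their values were seen. *Tdgf1* reads 117 in D12S+ and 0 in D12S-, and *Cd44* 62.4 and 1389.

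Several of the strongest one-sided peaks lay where the input was also high. The 5 highest scoring peaks found in D12S+ only were a 1.06 kb peak at chr3:148715075-148716140 (216), an intronic peak of *Smo* at chr6:29697442-29699282 (192), a 6.42 kb intergenic peak on chromosome 18 near *Vmn1r238* (144), a promoter peak of *Sfi1* at chr11:3093001-3093626 (123) and a peak over *Tdgf1* at chr9:110840209-110846301 (98.6). At the peaks on chromosomes 3, 6 and 11 the input was 21.3, 9.96 and 29.1 times the median, and at *Tdgf1* it was 1.25 times. The 5 highest found in D12S- only were the peak beside *Tcf19*, an intronic peak of *Pdzrn3*, an E3 ligase gene, at chr6:101298009-101311201 (228), a peak at chr2:181651889-181654184 (213, input 11.9 times the median), one 16.3 kb from *Cxcr7*, a chemokine receptor gene, at chr1:92110426-92123355 (175), and one near the end of *Rbms1*, an RNA-binding protein gene, at chr2:60586956-60598348 (170). The *Pdzrn3*, *Cxcr7* and *Rbms1* peaks were 11.4 to 13.2 kb long with inputs of 0.906 to 1.28 times the median, and none of them had a peak in D16S+ or ESD3. Of the peaks with high input, that of *Sfi1* scored 177 in D16S+, 581 in iPSCs and 290 in ESD3. No peak overlapped it in the remaining reprogramming libraries, though MEF had 202. The other peaks with high input were less divided. The *Tcf19* peak had 5742 in iPSCs and 76.6 in ESD3, the peak at chr2:181651889-181654184 had 289 in D16S+ and 618 in iPSCs, and the D12S+ only peak on chromosome 3 had 337 in D0 and none in D16S+.

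Motifs were counted in the 500 bp around the centre of one-sided intergenic peaks. As background they were counted in windows of the same length shifted by 5 kb, leaving out those that met a peak of either fraction. The letters were AP-1 TGANTCA, octamer ATGCNAAT, Sox AACAATG, Klf GGGNGTGG, Esrrb TCAAGGTCA and Tead ACATTCC, read on both strands, and a window could count for several motifs. At equal numbers AP-1 was present in 27.3% (26.3% to 28.4%) of 6966 D12S- only windows and in 14.2% of the flanks. In 6810 D12S+ only windows it was present in 16.7% (15.8% to 17.6%) and in 15.7% of the flanks. The difference between the 2 sets of peaks was -10.7 points (-12.0 to -9.28), and with all peaks -7.58 (-8.72 to -6.42). Intergenic peaks that overlapped between fractions held it in 18.1% (D12S+) and 19.6% (D12S-), between the one-sided sets.

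The octamer went the other way, with 10.3% (9.62% to 11.1%) of the D12S+ only peaks and 6.85% of their flanks, against 7.90% and 6.61% for D12S- only. The difference was 2.43 points (1.47 to 3.39). Klf was above its flanks in both sets (15.7% and 12.9% in D12S+ only, 17.7% and 13.0% in D12S- only), as was Tead (8.50% and 6.72%, 8.47% and 6.84%). Sox was below its flanks in D12S+ only (7.64% and 9.26%) and above them in D12S- only (9.45% and 8.47%). Esrrb matches were rare, with 1.62% and 1.28% at peaks and 1.43% and 1.38% in flanks, and the difference between the fractions of 0.338 points had an interval from -0.0622 to 0.743. Median GC content was 46.8% at D12S+ only and 45% at D12S- only peaks, and 43.4% and 43.8% in the flanks.

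**Figure D5:**
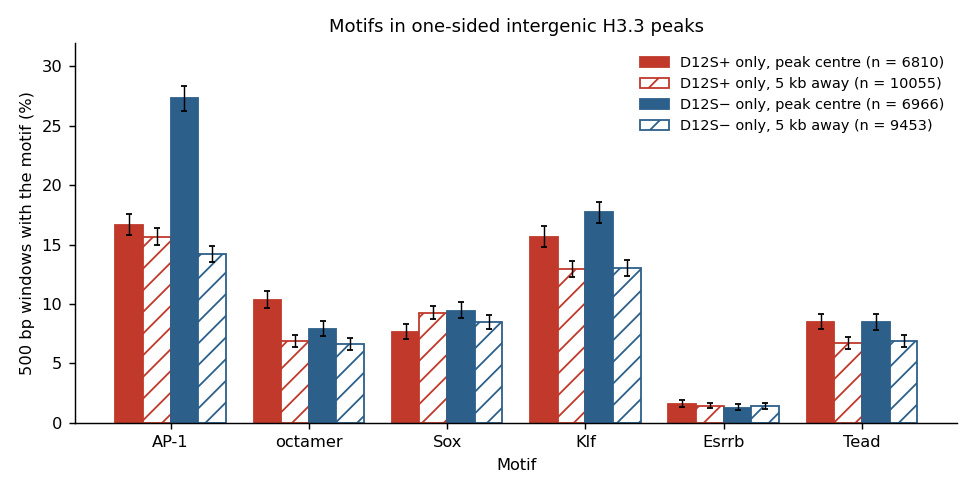
Share (%, y axis) of 500 bp windows with each motif (x axis) at the centre of intergenic peaks found in D12S+ only (solid red) or D12S- only (solid blue) at equal numbers, and in peak-free windows 5 kb away (hatched). Bars are shares with 95% Wilson intervals, and AP-1 stands at 27.3% in D12S- only peaks against 14.2% to 16.7% in the other 3 sets of windows.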

How the data were processed

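H3.3 ChIP-Seq peak lists of D12S+ and D12S- were analysed, with 17 further lists for comparison. Per the study's methods and the labels, reads were mapped to mm9 with STAR, reads at several loci were removed, and the authors called peaks for each library alone against its input with HOMER findPeaks in histone style (peak size of 500 bp, fold over input of at least 2, Poisson limit of 0.0001). Versions are not given in the sources used here. The deposited score is a signal, the normalized tag count per 10 M tags, and the deposited fold over input is a ratio. D12S+ and D12S- had 22.5 M and 27.3 M tags.

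Peaks were compared by overlap of at least 1 bp, classed by midpoint against the 22238 protein-coding genes of GENCODE vM1 (build NCBIM37, equal to mm9) with a TTS class from 100 bp upstream to 1000 bp downstream of transcript ends, and assigned to the nearest transcription start. Of 315 list entries 314 matched, 5 of them by an older symbol. The members and lists were chosen with earlier results of these data known. Named were the 10 highest one-sided genes per fraction, the 5 largest and 5 smallest ratios, up to 8 one-sided members per list, all sort markers and delivered factors, and the 5 highest one-sided peaks per fraction. Other genes were named, and genes ranked again by touching peaks, after their values were seen. The result of 1 gene that the rule names is not reported here. Functions were tested on simulated data. Alternatives were equal numbers by score or by score per kb, a fold of at least 4, the top 20000 peaks, autosomes, an overlap of 0.5, gene by midpoint and base pairs. Python 3.11.15, numpy and pandas were used.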

Additional observations from a re-analysis of the deposited data

How the results depend on the processing

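No difference could be set against replicates, and D12S+ had 6.93% of its tags in peaks against 22.0% in D12S-, which limits what a missing D12S+ peak shows. All values below are over both whole lists unless a setting is named. D12S+ peaks without a D12S- peak, 29.5% in the main setting, were 37.3% with equal numbers, 43.8% by score per kb, 61.1% at a fold of 4, 33.8% with the top 20000 and 37.6% at an overlap of 0.5. D12S- peaks without a D12S+ peak (71.8%) were 54.4% with equal numbers, 59.9% by score per kb, 79.5% at a fold of 4, 50.6% with the top 20000 and 89.1% at an overlap of 0.5. Genes bound in D12S+ only (758) numbered 1626 with equal numbers, 1820 by score per kb, 1521 at a fold of 4 and 1651 with the top 20000. Genes bound in D12S- only (3584) numbered 2089 with equal numbers, 2261 by score per kb and 2172 with the top 20000. The intergenic difference (13.6 points) was 12.0 with equal numbers, 7.43 by score per kb, 4.74 at a fold of 4, 17.5 with the top 20000, 11.1 at an overlap of 0.5 and 16.7 by base pairs. The iPSCs difference (26.9) was 19.2 with equal numbers, 24.6 by score per kb, 21.6 at a fold of 4 and 25.2 at an overlap of 0.5. The D0 difference (-18.6) was -31.2 with equal numbers, -15.7 by score per kb, -4.35 at a fold of 4, -39.0 with the top 20000, -12.5 at an overlap of 0.5 and -13.2 by midpoint. The D12S+ H3K4me3 difference (1.47) was -1.66 with equal numbers, 1.04 by score per kb and 5.43 at a fold of 4. It was 3.35 with the top 20000, 2.24 at an overlap of 0.5 and 2.23 by midpoint. The AP-1 difference (-7.58) was -10.7 with equal numbers, -10.3 by score per kb, -5.05 at a fold of 4 and -9.35 with the top 20000. The D12S+ H3K4me3 difference changed sign with equal numbers by score, not with equal numbers by score per kb, and no other difference listed here changed sign. The causes of the changes were not tested. The differences for pluripotency and fibroblast matrix genes stayed inside their main intervals in every alternative run, from 6.82 to 22.7 points and from -40 to -20 points. The pluripotency interval left out 0 with equal numbers and with the top 20000 and included it otherwise, and the fibroblast matrix interval included 0 with the top 20000. Restriction to autosomes left every result inside its main interval or, for gene counts, within 1.5 times. The midpoint rule was added after the data were seen. No paired analysis was possible because the labels carry no replicate numbers.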
